A study of Mus musculus with 18 samples.

Results

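The Hedgehog pathway genes *Ptch1*, *Smo*, *Sufu*, *Gli1*, *Gli2*, *Gli3*, *Gpr161*, *Hhip*, *Boc* and *Gas1* were examined across brain regions and genotypes. These 10 genes, receptors, regulators and transcription factors of a pathway that signals through the primary cilium, were listed by name and matched to their Ensembl identifiers, and they are 10 of the 38561 genes counted. All 10 passed the count filter, which left 17545 genes to test. The samples were 18 mRNA sequencing libraries of adult mice on a C57 Bl6J background, from 3 regions (frontal cortex, striatum and hippocampus) of 3 WT and 3 *Pcm1*-/- mice (PCM1 KO in the sample names). The regions of an animal were sequenced separately, and the WT mice were littermates. The mutants carry a gene-trap insertion made in E14Tg2a.4 embryonic stem cells that was afterwards backcrossed to C57BL/6J, it is in every cell of the body, and both sexes were sequenced. The comparisons ask how far each gene differs between regions and whether it differs between genotypes in any region.

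PCM1 is a scaffold protein of the centriolar satellites, the granules around the centrosome and the base of the primary cilium. In the Hedgehog pathway the receptor Patched 1 holds Smoothened inactive and out of the cilium until a Hedgehog ligand binds it, and the G protein-coupled receptor GPR161 leaves the cilium when Smoothened enters. Protein kinase A and SUFU otherwise keep the Gli factors in check, GLI3 mainly as a cleaved repressor and GLI2 mainly as an activator, and *Gli1*, *Ptch1* and *Hhip* are themselves transcribed in response to the signal. In the adult brain the pathway is known from stem cells and astrocytes that receive Sonic hedgehog made by neurons.

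The libraries held 24950537 to 33405081 counts on genes. *Pcm1* was at 120 to 172 CPM (counts per library scaled to the same total with edgeR's TMM factors) in the WT libraries and at 11.8 to 17.6 CPM in the *Pcm1*-/- libraries, which fits the labels. WT striatum replicate 3 stood apart: 6 choroid plexus markers summed to 5910 CPM in it, against 32.1 and 33.6 CPM in the other WT striatum libraries and 8.90 to 141 CPM in the mutant ones, and results that rest on it are given without it. In the hippocampus the same sum ranged from 214 to 6196 CPM. All WT striatum libraries came from lane 5 and the mutant ones from lanes 3 and 4, so that lane and genotype cannot be told apart within the striatum. In tissue RNA, fewer cells of a type and less RNA per cell cannot be told apart, and p-values here measure the spread between 3 animals per genotype.

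The promoter sequences of *Gpr161* and *Hhip* are shown because these genes had the steepest rises from the frontal cortex, *Gpr161* in the hippocampus and *Hhip* in the striatum. Each is the stretch of 250 bases before a RefSeq transcription start in GRCm38.p6, written 5′ to 3′ on the gene's strand, with the dinucleotide CG in capitals. That of *Gpr161* is the first of 2 starts, at chr1:165295516-165295765 on the plus strand, and that of *Hhip* is at chr8:80058009-80058258 on the minus strand.
Gpr161: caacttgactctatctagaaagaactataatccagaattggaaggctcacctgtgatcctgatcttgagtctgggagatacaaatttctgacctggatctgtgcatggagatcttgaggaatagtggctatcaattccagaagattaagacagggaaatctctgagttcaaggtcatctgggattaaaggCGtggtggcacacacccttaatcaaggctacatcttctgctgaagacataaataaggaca
Hhip: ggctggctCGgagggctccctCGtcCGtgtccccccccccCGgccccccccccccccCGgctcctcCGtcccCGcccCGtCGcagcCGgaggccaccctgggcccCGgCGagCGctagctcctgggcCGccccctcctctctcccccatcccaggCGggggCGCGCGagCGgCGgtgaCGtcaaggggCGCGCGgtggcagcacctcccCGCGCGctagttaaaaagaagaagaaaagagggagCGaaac
The *Gpr161* window, with the 50 bases after the start included, holds 1 CG, and its other start holds 5. The *Hhip* window holds 30, above 88.3% of the 32851 windows of the reference, whose median is 7. The windows of *Ptch1* (47), *Gli3* (39), *Gli2* (28), *Smo* (17), *Gas1* (17) and *Sufu* (12) lie above the median too, and *Gli1* and *Boc* had no window in the table. The Gli binding motif GACCACCCA (or TGGGTGGTC on the other strand), searched as these exact letters, is in none of the windows of the 8 genes and in 0.253% of all windows.

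*Ptch1*, the receptor, was the most abundant of the 10 genes per length in WT striatum, and *Boc* in WT frontal cortex. Per kilobase of exon, *Ptch1* was at 4.87 ± 0.453 CPM per kb (SD, n = 3) in WT striatum, 3.16 ± 0.162 in WT frontal cortex and 3.50 ± 0.181 in WT hippocampus. In CPM the 3 WT striatum libraries gave 62.6, 69.1 and 75.4 for *Ptch1*, the frontal cortex 46.4, 46.0 and 42.2, and the hippocampus 52.6, 48.4 and 48.0. The striatum lay above both other regions without overlap. The difference from the frontal cortex was 0.62 ± 0.08 (log2 fold change ± standard error, adjusted p = 1.8e-04) and from the hippocampus 0.48 ± 0.08 (adjusted p = 0.00134), while the hippocampus and the frontal cortex differed by 0.14 ± 0.08 (adjusted p = 0.223).

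Of the 10 genes, 7 passed an adjusted p of 0.05 between WT striatum and WT frontal cortex, where 41.5% of all genes did, 5 of them higher and 2 lower in the striatum. Between WT hippocampus and WT frontal cortex 5 passed (29.8% of all genes), 3 higher and 2 lower in the hippocampus. Between WT striatum and WT hippocampus 7 passed (29.2% of all genes), 4 higher and 3 lower in the striatum. The median log2 fold change of the 10 genes was 0.36, 0.18 and -0.22 in these comparisons, and that of all genes 0.02, -0.01 and 0.01. In the mutant libraries 7 genes passed between striatum and frontal cortex (54.3% of all genes), 6 between hippocampus and frontal cortex (41.5%) and 7 between striatum and hippocampus (45%).

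**Figure D1:**
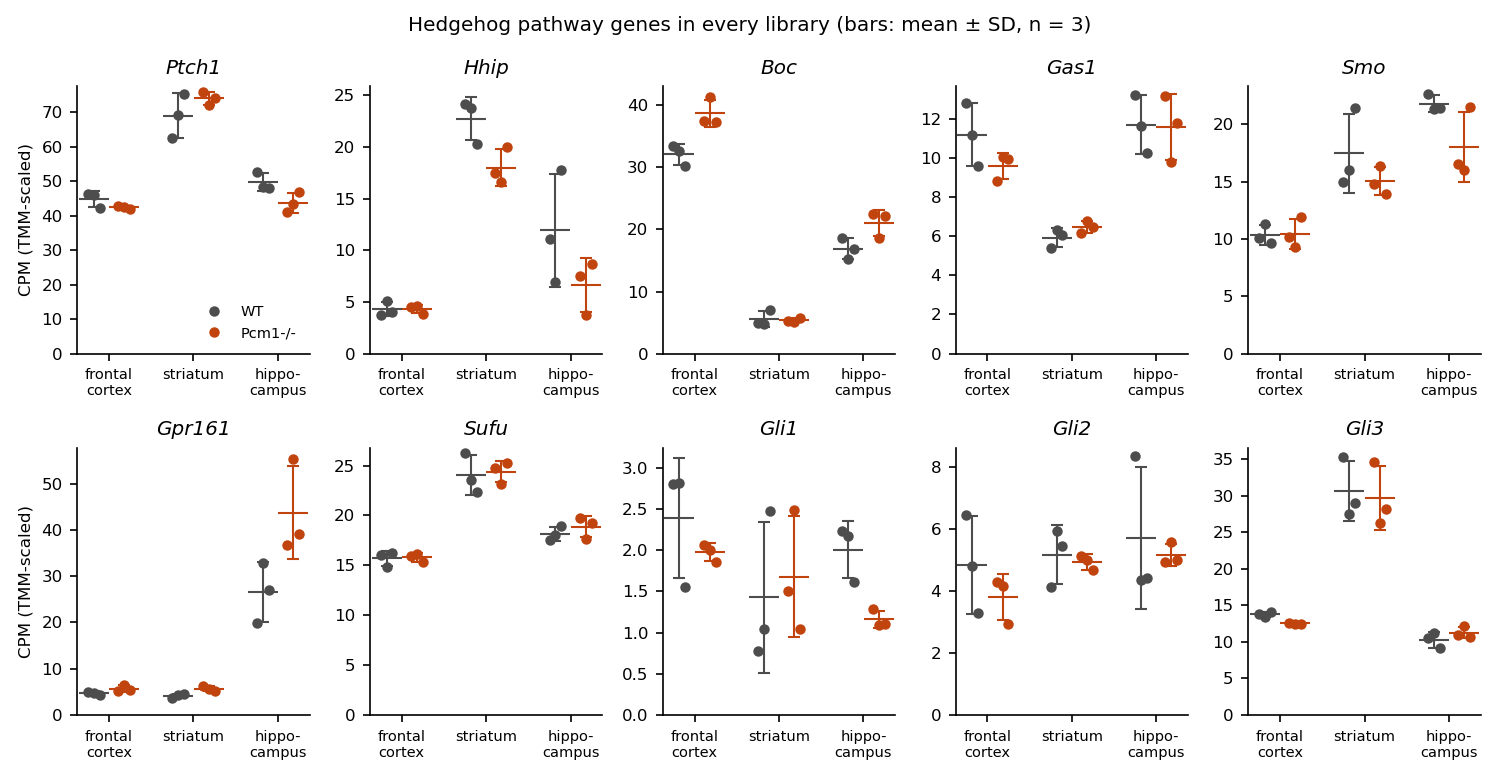
CPM of each of the 10 genes in all 18 libraries, by region, with WT in grey and *Pcm1*-/- in orange; points are libraries and bars the mean ± SD of 3. *Gpr161* stands highest in the hippocampus, *Hhip*, *Ptch1*, *Sufu* and *Gli3* in the striatum and *Boc* in the frontal cortex, while most genotype pairs overlap.

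*Hhip*, which encodes a membrane protein that binds Hedgehog ligands and so limits the signal, had the widest range of levels among the 3 regions after *Gpr161* and *Boc*. WT striatum gave 24.1, 23.8 and 20.3 CPM, WT hippocampus 11.1, 6.93 and 17.7 CPM, and WT frontal cortex 3.75, 5.10 and 4.06 CPM. The regions did not overlap, and the hippocampal libraries were spread most. The striatum exceeded the frontal cortex by 2.40 ± 0.29 on the log2 scale, a 5.30-fold difference (adjusted p = 9.4e-05), and the hippocampus exceeded it by 1.47 ± 0.29 (adjusted p = 0.00357). The step from hippocampus to striatum was 0.93 ± 0.27 (adjusted p = 0.026), and it had an adjusted p of 0.0704 to 0.0714 when WT striatum replicate 1, WT striatum replicate 2 or WT hippocampus replicate 1 was left out. In the mutants the hippocampus lay 0.63 ± 0.24 above the frontal cortex (adjusted p = 0.0612) and the striatum 1.44 ± 0.23 above the hippocampus (adjusted p = 4.6e-04).

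The co-receptors *Boc* and *Gas1*, which bind Sonic hedgehog at the cell surface together with Patched 1, were both lowest in the striatum. *Boc* gave 33.4, 32.7 and 30.2 CPM in WT frontal cortex, 18.6, 15.3 and 16.9 CPM in WT hippocampus, and 4.89, 4.79 and 6.98 CPM in WT striatum. The 3 regions did not overlap. *Boc* was lower in the striatum than in the frontal cortex by 2.53 ± 0.15 on the log2 scale, to 0.174 of its level there (adjusted p = 7.12e-07). It was lower in the hippocampus than in the frontal cortex by 0.93 ± 0.14 (adjusted p = 7.82e-04), and in the striatum than in the hippocampus by 1.60 ± 0.15 (adjusted p = 1.74e-05). *Gas1* gave 12.8, 11.2 and 9.59 CPM in WT frontal cortex, 13.2, 11.7 and 10.2 CPM in WT hippocampus, and 5.40, 6.34 and 6.04 CPM in WT striatum. The first 2 regions overlapped, with a difference of 0.06 ± 0.14 (adjusted p = 0.783), and the striatum lay below both, by 0.91 ± 0.14 (adjusted p = 5.79e-04) and 0.98 ± 0.14 (adjusted p = 4.78e-04).

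*Smo*, the seven-pass transducer that Patched 1 holds inactive, was lowest in the frontal cortex. WT frontal cortex gave 10.1, 11.3 and 9.66 CPM, WT striatum 15.0, 16.0 and 21.4 CPM, and WT hippocampus 22.7, 21.3 and 21.5 CPM. The highest striatal value is that of replicate 3, the library with the choroid plexus markers, and it is the one that reaches the hippocampal range. Both regions exceeded the frontal cortex, by 0.76 ± 0.14 (adjusted p = 0.00138) and 1.07 ± 0.14 (adjusted p = 2.79e-04) on the log2 scale. *Smo* differed between striatum and hippocampus by -0.31 ± 0.13 (adjusted p = 0.111), by -0.49 (adjusted p = 0.00691) without WT striatum replicate 3 and by -0.33 (adjusted p = 0.0472) with the animal as a block, and over all alternatives its adjusted p ranged from 0.00691 to 0.317. The WT hippocampus libraries held choroid plexus markers too, at 6196, 2324 and 2118 CPM. Leaving out striatum replicate 3 thus removes them from the striatal side only. The part of the choroid plexus in *Smo* was not tested.

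*Gpr161*, whose product raises cyclic AMP in the cilium and so favours the repressor forms of the Gli factors, was the gene with the steepest difference between regions in both genotypes. WT hippocampus gave 19.8, 32.9 and 27.0 CPM, WT frontal cortex 5.04, 4.83 and 4.24 CPM, and WT striatum 3.68, 4.36 and 4.43 CPM. Every hippocampal library was above every library of the other regions. The hippocampus exceeded the frontal cortex by 2.49 ± 0.19 on the log2 scale, a 5.63-fold difference (adjusted p = 8.45e-06), and the striatum was below the hippocampus by 2.67 ± 0.19 (adjusted p = 2.28e-06). The striatum and the frontal cortex differed by -0.18 ± 0.19 (adjusted p = 0.493) in WT and by 0.01 ± 0.17 (adjusted p = 0.976) in *Pcm1*-/- mice. In the mutants the hippocampus was 7.63-fold above the frontal cortex (2.93 ± 0.16, adjusted p = 3.5e-07). *Gpr161* stood among the lowest genes per length in the frontal cortex, at 0.676 ± 0.0597 CPM per kb (SD, n = 3), and at 3.82 ± 0.942 CPM per kb in the hippocampus its range overlapped those of *Gas1*, *Smo* and *Boc*, the other genes at the top of the order there.

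*Sufu*, which encodes the cytoplasmic protein that binds and restrains the Gli factors, varied little between libraries of a group, with a coefficient of variation of 2.8% to 8.3%. WT striatum gave 26.2, 23.6 and 22.3 CPM, WT frontal cortex 16.0, 14.9 and 16.2 CPM, and WT hippocampus 17.6, 18.02 and 18.9 CPM. The 3 regions did not overlap, with the striatum highest. The striatum exceeded the frontal cortex by 0.62 ± 0.09 (adjusted p = 3.9e-04) and the hippocampus by 0.41 ± 0.09 (adjusted p = 0.00663). The hippocampus lay 0.21 ± 0.09 above the frontal cortex (adjusted p = 0.118), and in the mutants 0.25 ± 0.07 above it (adjusted p = 0.0138).

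Among the transcription factors, *Gli3* differed between regions and made up most of the Gli transcripts in the striatum. *Gli3* gave 35.3, 27.5 and 29.1 CPM in WT striatum, 13.8, 13.4 and 14.1 CPM in WT frontal cortex, and 10.6, 11.2 and 9.14 CPM in WT hippocampus. The striatum exceeded the frontal cortex by 1.15 ± 0.12 (adjusted p = 2.73e-05) and the hippocampus by 1.58 ± 0.12 (adjusted p = 3.79e-06) on the log2 scale. The hippocampus was below the frontal cortex by 0.43 ± 0.12 (adjusted p = 0.0217). That last difference had an adjusted p of 0.053 to 0.0866 without WT frontal cortex replicate 1, 2 or 3 or WT hippocampus replicate 3, and in the mutants it was -0.16 ± 0.11 (adjusted p = 0.244).

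*Gli2*, the main activator, gave 4.12 to 5.94 CPM in WT striatum, 3.28 to 6.44 in WT frontal cortex and 4.35 to 8.36 in WT hippocampus, and these ranges overlapped. None of its WT differences passed the test, and in the mutants the hippocampus exceeded the frontal cortex by 0.43 ± 0.15 (adjusted p = 0.0392). *Gli1*, the target gene most used as a readout of the pathway, was the least abundant Gli gene, with 21 to 80 reads per library in WT mice. It gave 2.80, 2.82 and 1.55 CPM in WT frontal cortex, 2.23, 2.17 and 1.61 CPM in WT hippocampus, and 0.772, 1.05 and 2.48 CPM in WT striatum. The high striatal value is again replicate 3, which also had the highest sum of 5 ependymal cell markers among the WT striatum libraries, 58.0 CPM against 25.1 and 38.5 CPM. In the mutants, striatum replicate 2 had the highest ependymal sum, 57.5 CPM against 43.4 and 40.5 CPM, and the highest *Gli1*, 2.48 CPM against 1.50 and 1.05 CPM. Both libraries also had the highest choroid plexus sums of their groups, at 5910 and 141 CPM. They were the striatal libraries with many Y-chromosome reads, 3889 and 4393 against 67 to 90 in the others. The ependymal sums were 3.84 to 6.13 CPM in WT frontal cortex, where *Gli1* was at 1.55 to 2.82 CPM. In WT hippocampus they were 61.6, 25.1 and 55.5 CPM, beside the 2.23, 2.17 and 1.61 CPM of *Gli1*. The part of these cells or of sex in the *Gli1* level was not tested.

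*Gli1* differed between WT striatum and WT frontal cortex by -0.73 ± 0.40 (adjusted p = 0.176), and by -1.39 (adjusted p = 0.00863) without WT striatum replicate 3. Between WT striatum and WT hippocampus the difference was -0.47 ± 0.41 (adjusted p = 0.436), and -1.13 (adjusted p = 0.0283) without that library. With the animal as a block the first of these differences was -0.79 (adjusted p = 0.0458). Over all alternatives the adjusted p ranged from 0.00863 to 0.503 for the first and from 0.0283 to 0.806 for the second. In the mutants the hippocampus was below the frontal cortex by 0.77 ± 0.28 (adjusted p = 0.0443). Exons of *Gli1* overlap *Arhgap9* and those of *Gli3* overlap *Gm6556* on the opposite strand, and the strand setting of the counting is not given in the sources used here, so that the counts of both are uncertain there. Counted genes did not overlap exons of the other 8.

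The make-up of the Gli transcripts differed between regions. Of the summed CPM per kb of the 3 Gli genes, *Gli3* made up 75.3 ± 6.79% (SD, n = 3) in WT striatum, 55.6 ± 8.46% in WT frontal cortex and 47.2 ± 6.55% in WT hippocampus. The striatal share ranged from 70.2% to 83.0% and the others from 49.0% to 65.2% and from 39.8% to 52.2%, so that the striatum did not overlap the other regions. *Gli2* made up 17.9 ± 4.23%, 26.4 ± 5.38% and 35.3 ± 7.99%, and *Gli1* 6.8 ± 4.19%, 17.98 ± 3.85% and 17.5 ± 1.74%. Without WT striatum replicate 3 the striatal *Gli1* share was 4.39%. In the mutants the *Gli3* shares were 74.4 ± 4.64%, 58.1 ± 3.33% and 54.4 ± 0.63%.

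**Figure D2:**
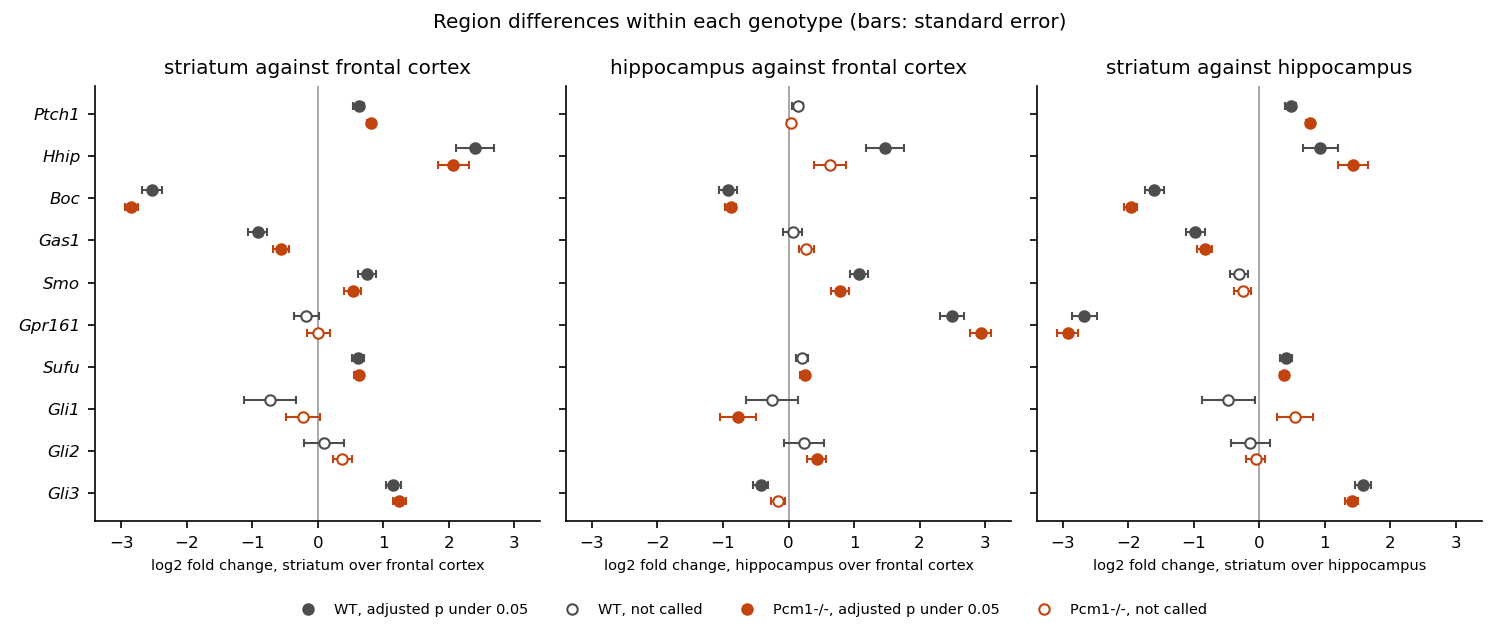
Log2 fold changes between regions for the 10 genes, with WT in grey and *Pcm1*-/- in orange; bars are standard errors and filled points have an adjusted p under 0.05. *Gpr161* and *Boc* lie farthest from 0, *Gpr161* at 2.49 in WT hippocampus against frontal cortex and *Boc* at -2.53 in WT striatum against frontal cortex.

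The order of the levels per length differed between regions. In WT frontal cortex *Boc* came first (7.21 ± 0.380 CPM per kb, SD, n = 3), then *Gas1* and *Ptch1*, which overlapped, then *Sufu* and *Smo*, which overlapped, and then *Gli3*. *Gli2* and *Gpr161* overlapped below these, and *Gli1* and *Hhip* overlapped at the bottom, near 0.478 and 0.474 CPM per kb. In WT striatum *Ptch1* came first, *Gli3*, *Sufu* and *Smo* followed with overlapping ranges, and then *Hhip*, *Gas1* and *Boc* without overlap. At the bottom there, *Gli2* and *Gpr161* overlapped and *Gli1* was last at 0.287 ± 0.184 CPM per kb, or 0.182 CPM per kb without replicate 3. In WT hippocampus each of *Gas1*, *Smo*, *Gpr161*, *Boc* and *Ptch1*, in this order, overlapped its neighbour, *Sufu* and then *Hhip*, *Gli3* and *Gli2* came below them, and *Gli1* was last at 0.402 ± 0.0686 CPM per kb.

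Between genotypes none of the 10 genes passed an adjusted p of 0.05 in any region with edgeR's quasi-likelihood test. Of all genes 1.74% passed in the frontal cortex, 0.0285% did in striatum and 0.0171% in hippocampus, where the replicate number as a block gave 9 genes in place of 3 and again none of the 10. DESeq2 called none of the 10 in any region either. At an unadjusted edgeR p under 0.05 there was 1 of the 10 in frontal cortex (15.3% of all genes), 2 in striatum (13.5%) and 4 in hippocampus (9.89%). The groups did not overlap for 3 genes in frontal cortex (21.3% of all genes), 2 in striatum (19%) and 4 in hippocampus (17.1%). The median log2 fold change of the 10 genes was -0.05, -0.01 and -0.09, and that of all genes -0.01, 0.00 and 0.00. Of 15 lists of cell type markers, the summed level did not overlap between genotypes for 6 in frontal cortex, where oligodendrocytes, microglia, mural cells and choroid plexus were lower in the mutants and glutamatergic and striatal projection neurons higher. Sums without overlap were found for 7 lists in striatum, with oligodendrocyte, mural cell, fibroblast and thalamus or septum markers lower. The sums of GABA, striatal projection and hippocampal neuron markers were higher, though the single genes of the hippocampal list did not all go the same way. In hippocampus there were 5 such lists, with the sums of endothelial and fibroblast markers lower. Those of neural stem and dividing cell, glutamatergic neuron and hippocampal neuron markers were higher, the last again with single genes in both directions.

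*Gpr161* was the gene among the 10 whose *Pcm1*-/- libraries all lay above the WT libraries in each of the 3 regions, a pattern in the same direction that 2.32% of all genes had. The mutant hippocampus gave 36.8, 55.2 and 39.1 CPM against 19.8, 32.9 and 27.0 CPM in WT, the mutant striatum 6.29, 5.60 and 5.25 CPM against 3.68, 4.36 and 4.43 CPM, and the mutant frontal cortex 5.14, 6.49 and 5.45 CPM against 5.04, 4.83 and 4.24 CPM. The regions come from the same animals and are not independent of each other. The differences were 0.70 ± 0.21 in the hippocampus (adjusted p = 0.405), 0.46 ± 0.14 in striatum (adjusted p = 0.243) and 0.27 ± 0.13 in frontal cortex (adjusted p = 0.387). With a shared spread in a fit of all 18 libraries, the hippocampal difference was 0.72 with an adjusted p of 0.0462, the lowest of its alternatives, which reached 0.919.

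In the hippocampus the *Pcm1*-/- libraries also had higher sums of 4 markers of glutamatergic neurons of cortex and hippocampus, at 2381, 2706 and 2162 CPM, than the WT libraries, at 1693, 2139 and 1607 CPM. Of these markers, none passed the test there. The 5 markers of hippocampal granule and pyramidal neurons summed to 602, 606 and 551 CPM in the mutant hippocampus and 534, 484 and 520 CPM in WT, and to 293 to 383 CPM against 242 to 273 CPM in the striatum, where as in the hippocampus 3 of the 5 had a positive and 2 a negative difference. In the frontal cortex all 5 had a negative difference, with sums of 145 to 193 CPM in the mutants and 157 to 243 CPM in WT, and none of the 5 passed the test between genotypes in any region. In each genotype replicate 2 had, in the hippocampus, the highest *Gpr161* and the highest sum of the glutamatergic markers, and it is also the library with many Y-chromosome reads (3372 in WT and 3233 in the mutants, against 78 to 98 in the others). In the frontal cortex the glutamatergic markers summed to 2744 to 2893 CPM in the mutants and 2363 to 2423 CPM in WT, and 1 of the 4 passed the test. In the striatum, 6 markers of striatal projection neurons summed to 5986 to 6404 CPM in the mutants and 5141 to 5848 CPM in WT. The same 6 markers summed to 208 to 225 CPM in the mutant frontal cortex and 156 to 178 CPM in WT, and 2 of the 6 passed the test there. The part of these cells in the *Gpr161* levels was not tested.

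*Boc* was higher in all mutant libraries in the frontal cortex and the hippocampus, though not past the test. In the frontal cortex the mutants gave 37.5, 41.3 and 37.4 CPM against 33.4, 32.7 and 30.2 CPM in WT, a difference of 0.26 ± 0.07 (adjusted p = 0.106). In the hippocampus they gave 22.4, 18.7 and 22.2 CPM against 18.6, 15.3 and 16.9 CPM, a difference of 0.30 ± 0.12 (adjusted p = 0.48). In both regions the sum of glutamatergic neuron markers was also above WT in every mutant library, as was that of the striatal projection neuron markers in the frontal cortex, and their part was not tested. In the striatum *Boc* was at 5.32, 5.09 and 5.72 CPM in the mutants, within the WT range of 4.79 to 6.98 CPM, with a difference of -0.05 ± 0.17 (adjusted p = 0.941). Without WT striatum replicate 3, which holds the highest WT value, the mutants lay above both remaining WT libraries and the difference was 0.15 (adjusted p = 0.666).

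*Hhip* was at 17.4, 16.6 and 19.97 CPM in the mutant striatum, below all WT values, with a difference of -0.33 ± 0.10 (adjusted p = 0.236), which came to 0.04 when lane was added to a fit across all 18 libraries. In the hippocampus the mutants gave 7.50, 3.69 and 8.68 CPM against 11.1, 6.93 and 17.7 CPM in WT, with overlap between the groups and a difference of -0.86 ± 0.40 (adjusted p = 0.528), which ran from -1.14 without WT hippocampus replicate 2 to -0.46 without WT hippocampus replicate 3. With the replicate number as a block the adjusted p was 0.0938, where the alternatives ranged up to 0.919, and the numbers were not shown to pair these libraries. The sum of 6 oligodendrocyte markers was 4803, 3481 and 5643 CPM in these mutant libraries and 9235, 4577 and 7480 CPM in WT, and 3 markers of thalamus or septum summed to 40.5, 23.0 and 121 CPM against 255, 92.4 and 290 CPM. In both genotypes replicate 2 was lowest in all of these measures and in *Hhip*. In the striatum the oligodendrocyte sum was 5225, 8625 and 6125 CPM in the mutants, below the WT values of 8889, 8731 and 8696 CPM. It was below WT in the frontal cortex too, at 1580, 1668 and 1669 CPM against 2395, 1879 and 1766 CPM, where *Hhip* differed by -0.01 ± 0.15 (adjusted p = 0.995). The part of these cells in *Hhip* was not tested. *Hhip* lies on chromosome 8, as *Pcm1* does, 38.6 Mb away.

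*Gli1* and *Ptch1*, the other known targets of the pathway among the 10, did not pass the test either. *Gli1* in the hippocampus was at 1.28, 1.09 and 1.11 CPM in the mutants, below the WT values of 2.23, 2.17 and 1.61 CPM, from 26 to 39 reads in the mutants and 48 to 58 in WT, and the difference was -0.80 ± 0.23 (adjusted p = 0.405). The striatal difference of *Gli1* was 0.23 ± 0.47 (adjusted p = 0.871), 0.89 (adjusted p = 0.38) without WT striatum replicate 3 and -0.17 (adjusted p = 0.906) without *Pcm1*-/- striatum replicate 2. The cortical difference was -0.28 ± 0.23 (adjusted p = 0.621) and ran from -0.51, without WT frontal cortex replicate 3, to -0.14 as libraries were left out. *Ptch1* gave 41.0, 43.3 and 46.7 CPM in the mutant hippocampus, below all WT values, with a difference of -0.20 ± 0.08 (adjusted p = 0.488). In these hippocampal libraries 5 endothelial markers summed to 136 to 148 CPM in the mutants and 153 to 218 CPM in WT, 6 fibroblast markers to 50.1 to 59.2 CPM against 60.7 to 100.1 CPM, and 5 markers of neural stem and dividing cells to 23.4 to 26.2 CPM against 21.4 to 21.95 CPM. None of these markers passed the test, nor did the 3 of thalamus or septum given above, whose median difference was -1.67. The part of these cells in *Gli1* and *Ptch1* was not tested. In the striatum and the frontal cortex *Ptch1* overlapped between genotypes, with differences of 0.10 ± 0.07 (adjusted p = 0.585) and -0.09 ± 0.06 (adjusted p = 0.52).

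*Smo*, *Sufu*, *Gas1* and *Gli2* overlapped between genotypes in every region. *Smo* differed by -0.29 ± 0.13 (adjusted p = 0.521) in hippocampus, -0.21 ± 0.14 (adjusted p = 0.552) in striatum and 0.00 ± 0.11 (adjusted p = 0.994) in frontal cortex. The striatal *Smo* difference was -0.04 without WT striatum replicate 3. *Sufu* differed by at most 0.04 ± 0.09 on the log2 scale, in the hippocampus (adjusted p = 0.909), and *Gas1* by at most -0.23 ± 0.12, in the frontal cortex (adjusted p = 0.405). *Gli2* differed by -0.35 ± 0.24 (adjusted p = 0.544) in the frontal cortex, by -0.09 without WT frontal cortex replicate 1 and by -0.57 without replicate 3. *Gli3* was at 12.6, 12.5 and 12.5 CPM in the mutant frontal cortex, below all WT values, with a difference of -0.14 ± 0.07 (adjusted p = 0.387), and it overlapped between genotypes in the other regions. In the hippocampus the *Gli3* difference was 0.11 ± 0.12 (adjusted p = 0.768).

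**Figure D3:**
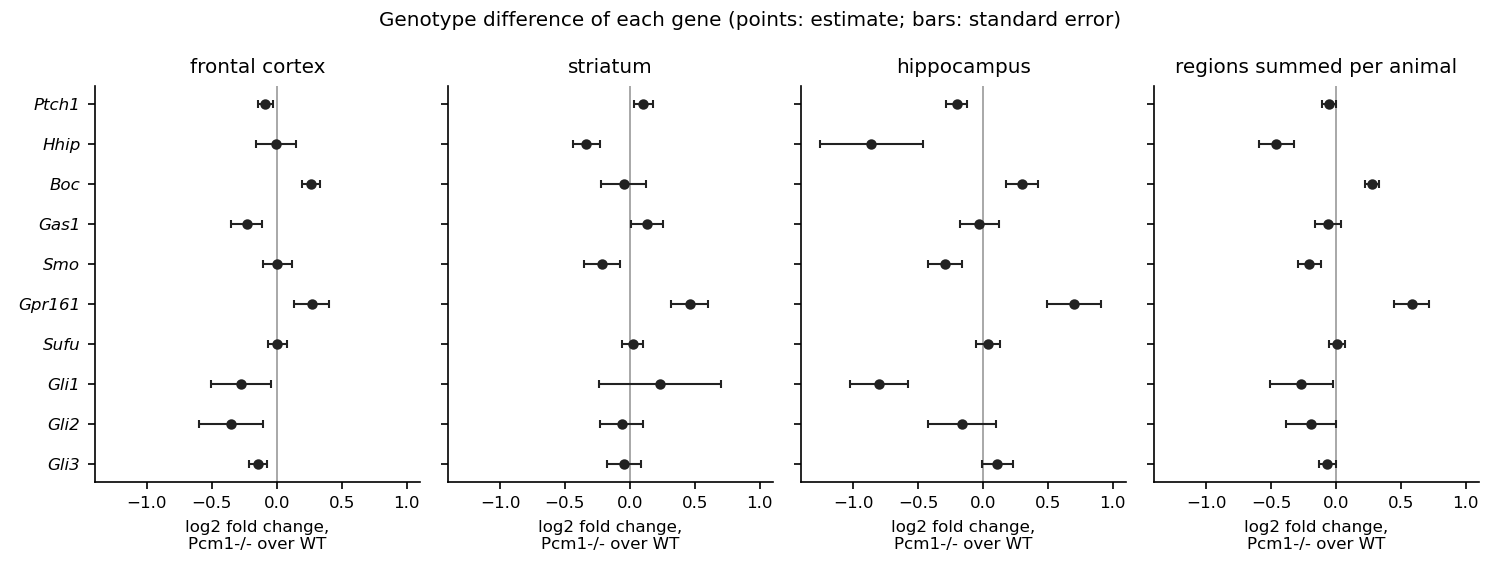
Log2 fold changes of *Pcm1*-/- over WT for the 10 genes in each region and for the counts summed over the regions of each animal; bars are standard errors. *Gpr161* lies above 0 in all panels, from 0.27 to 0.70, and the widest bar is that of *Gli1* in the striatum, at 0.47.

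When the counts of the 3 regions were summed per animal, none of the 10 genes passed with edgeR, where 1.39% of all genes did, and 3 of the 10 had an unadjusted p under 0.05, as 17.2% of all genes had. These were *Gpr161* (0.58 ± 0.14, adjusted p = 0.0897), *Boc* (0.28 ± 0.06, adjusted p = 0.0626) and *Hhip* (-0.46 ± 0.14, adjusted p = 0.152). With DESeq2 these 3 genes passed, *Gpr161* at an adjusted p of 0.00118 (0.00118 to 0.254 over all alternatives), *Boc* at 0.00306 (0.00306 to 0.292) and *Hhip* at 0.0198 (0.0198 to 0.459), among 1203 genes called in place of 243. All other alternatives of the sum, including those that left out each animal, called none of the 10.

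An interaction term over all 18 libraries asked whether the regions differ in their genotype difference. None of the 10 genes passed with edgeR, where 0.0114% of all genes did, or with DESeq2's likelihood ratio test. *Ptch1* alone had an unadjusted edgeR p under 0.05 (adjusted p = 0.83), with a striatal difference of 0.10 and a hippocampal difference of -0.20. The adjusted p of the other 9 genes was 1.

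**Figure D4:**
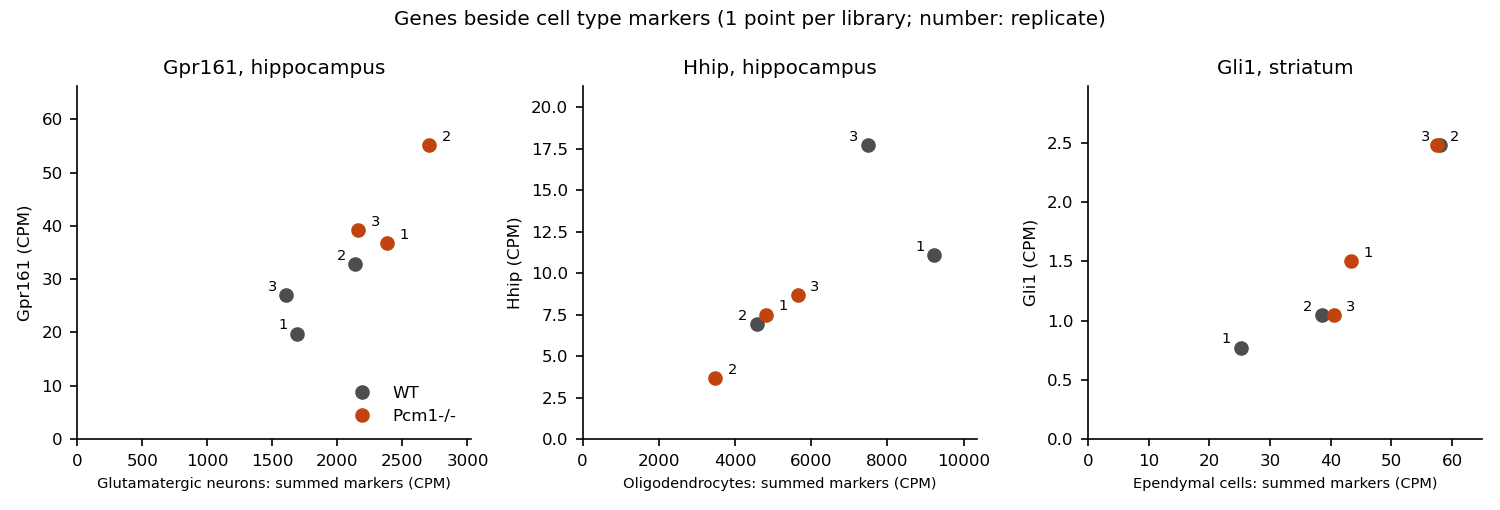
CPM of *Gpr161* and *Hhip* in the hippocampus and *Gli1* in the striatum against the summed CPM of markers of glutamatergic neurons, oligodendrocytes and ependymal cells, with WT in grey (replicate number to the left) and *Pcm1*-/- in orange (number to the right). The panels were chosen after the values were seen, and the library with the highest marker sum has the highest *Gpr161* (55.2 CPM) in the first. In the second the highest sum, 9235 CPM, has 11.1 CPM of *Hhip* and the highest *Hhip*, 17.7 CPM, a sum of 7480 CPM, and in the last the libraries at 58.0 and 57.5 CPM both have 2.48 CPM of *Gli1*. Those last libraries also hold the most Y-chromosome reads of the striatum.

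The remaining genes of the pathway were taken from lists by role. Of 9 genes for ligands and their release, 7 were tested (*Ihh* and *Dhh* were not), with 5 other receptors, 29 ciliary and cytoplasmic transducers, and 12 of 13 target genes (without *Foxl1*). Between genotypes none of these passed with edgeR in any region, in the sum per animal or in the interaction, and at an unadjusted p under 0.05 there were 3 of 7 ligand genes, 0 of 5 receptors, 5 of 29 transducers and 2 of 12 targets in the frontal cortex, against 15.3% of all genes. In the striatum these counts were 2, 0, 0 and 2 (13.5% of all genes), and in the hippocampus 1, 1, 1 and 4 (9.89%). The median log2 fold change of the ligand genes was 0.18 in frontal cortex, -0.05 in striatum and -0.38 in hippocampus, and that of the receptors -0.04, 0.11 and 0.10. It was -0.08, -0.08 and -0.24 for the targets and -0.03, 0.00 and -0.03 for the transducers. *Shh*, the ligand of the pathway in the brain, was at 2.91 ± 0.384 CPM (SD, n = 3) in WT frontal cortex, 4.21 ± 0.475 in WT striatum and 2.20 ± 0.150 in WT hippocampus, and at 3.61 ± 0.158, 3.72 ± 0.567 and 1.50 ± 0.416 CPM in the mutants.

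Between WT regions, striatum against frontal cortex called 4 of 7 ligand genes, 2 of 5 receptors, 13 of 29 transducers and 6 of 12 targets, with 41.5% of all genes called. Among the genes called, those with the largest differences in the ligand list were *Scube3*, which encodes a secreted protein of the family that releases Hedgehog ligands (4.65 ± 0.25, adjusted p = 3.51e-07), and its relative *Scube1* (-4.27 ± 0.51, adjusted p = 7.94e-05). *Lrp2*, which encodes the receptor megalin, passed as well (adjusted p = 9.92e-05), from 1 read in each WT frontal cortex library and 19 to 28 reads in the striatal ones, too few for a fold change. Among the transducers they were *Evc2*, whose product binds Smoothened at the base of the cilium (-2.23 ± 0.17, adjusted p = 3.25e-06), and the kinase gene *Grk2* (-1.41 ± 0.09, adjusted p = 1.52e-06). Among the targets they were *Foxc2* (-2.23 ± 0.35, adjusted p = 5.92e-04) and *Igf1* (-1.58 ± 0.12, adjusted p = 4.79e-06).

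Hippocampus against frontal cortex called 2 of 7 ligand genes, 2 of 5 receptors, 12 of 29 transducers and 4 of 12 targets, with 29.8% of all genes called. These counts fell with fewer libraries, as those of all genes did. The transducers fell to 7 without WT frontal cortex replicate 2 or 3 and to 8 without WT frontal cortex replicate 1 or WT hippocampus replicate 1 or 3. The targets fell to 1 without WT frontal cortex replicate 1 or 2 or WT hippocampus replicate 1. They fell to 2 without WT frontal cortex replicate 3 and to 3 without WT hippocampus replicate 2 or 3. The ligand genes fell to 1 without WT frontal cortex replicate 2 or 3. Of all genes, 29.5% were called without WT hippocampus replicate 2 and 21.2% to 25.3% without any one of the others. Without WT hippocampus replicate 2 there were 13 transducers. Among the genes called, the largest differences per list were those of *Scube3* (2.29 ± 0.24, adjusted p = 8.57e-05) and *Scube2* (0.67 ± 0.20, adjusted p = 0.0277), *Lrp2* (1 read per library against 17 to 48, adjusted p = 1.2e-04) and the co-receptor gene *Cdon* (0.45 ± 0.11, adjusted p = 0.00921). Among the transducers these were *Efcab7* (1.02 ± 0.22, adjusted p = 0.00581), which encodes a partner of the EVC proteins, and *Numb* (-0.99 ± 0.09, adjusted p = 3.73e-05), and among the targets *Nkx6-1* (1.73 ± 0.54, adjusted p = 0.0358) and *Nkx2-2* (0.83 ± 0.28, adjusted p = 0.0478), transcription factor genes of the ventral neural tube. With 1 library left out, the adjusted p reached 0.0961 for *Scube2*, 0.113 for *Nkx6-1* and 0.18 for *Nkx2-2*, and the call was lost without any one of 4 of the 6 libraries for *Scube2* and *Nkx2-2* and of 5 for *Nkx6-1*. Striatum against hippocampus called 6 of 7, 1 of 5 (2 without WT hippocampus replicate 2), 13 of 29 and 5 of 12, with 29.2% of all genes called, and in the same way the largest were *Scube1* (-3.10 ± 0.49, adjusted p = 7.25e-04, and -2.19 without WT hippocampus replicate 3) and *Scube3* (2.36 ± 0.21, adjusted p = 1.48e-05). *Evc2* (-2.32 ± 0.17, adjusted p = 2.67e-06) and *Prkacb*, for a catalytic subunit of protein kinase A (0.88 ± 0.08, adjusted p = 1.33e-05), led the transducers, and *Nkx6-1* (2 reads in each striatal library against 6 to 23, adjusted p = 0.00433) and *Foxc2* (-1.81 ± 0.36, adjusted p = 0.00329) the targets.

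The genes whose log2 CPM followed each of the 10 most closely over the 18 libraries were found by Pearson's r among 12869 genes (12870 for *Gli1*) with a mean log2 CPM of at least 1. The 18 libraries are 3 regions of 6 animals, so that these values mainly describe the region pattern. *Boc* was followed by *Myrip* (r = 0.991) and *Prickle1* (0.989), *Gli3* by *Plekha5* (0.989) and *Fam184b* (0.984), and *Gpr161* by *Susd6* (0.981) and *Cdc40* (0.978). *Sufu* was followed by *Smad4* (0.983) and *Hmgn1* (0.982), *Ptch1* by *Pcp4l1* (0.980) and *Kif27* (0.977), and *Hhip* by *Kcnk13* (0.971) and *Efcab14* (0.970). *Smo* was followed by *Drc7* (0.964) and *Lbp* (0.955), *Gas1* by *Stxbp6* (0.948) and *Ptgs2* (0.946), *Gli1* by *Tom1l1* (0.878) and *Alpl* (0.803), and *Gli2* by *Rtp4* (0.875) and *Map2k7* (0.869). The closest partners of *Gli1* and *Gli2*, the genes with the fewest reads among the Gli factors, were less close than those of the other 8.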

How the data were processed

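The authors trimmed the reads with Trim Galore and cutadapt, kept those of at least 20 nt, aligned them with STAR to GRCm38 (release GrCm38r73 in the methods), retained uniquely placed reads and used HTSeq to count them per Ensembl gene. The deposited values are raw counts, 1 library per file, and the 10.8% to 13.2% of each file's total in rows that name no gene was left out. Region, genotype, replicate and lane came from the sample labels, and animal numbers from the deposited data. The strand setting is not given in the sources used here.

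Counts were tested with edgeR 4.0.16 in R 4.3.3 (TMM factors, quasi-likelihood test, Benjamini-Hochberg adjustment over the 17545 genes that reached 10 counts in any library). Genotypes were compared within each region (6 libraries), as an interaction (18 libraries) and on counts summed per animal, and regions within each genotype (9 libraries). Log2 CPM used a prior count of 2. Lengths and positions are from GENCODE M21 on GRCm38, which holds 36639 of the counted genes, and promoters from RefSeq on GRCm38.p6. Alternatives were DESeq2 1.42.0, its size factors, other filters, fits of all libraries, lane, replicate and animal blocks, the *Pcm1*-/- libraries and leaving out each library or animal. The steps were tested on simulated data.

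The genes, the pathway and marker lists and the comparisons were chosen with earlier results of these data known. Genes named beyond the 10 are, per list, those with an adjusted p under 0.05 between genotypes and the 2 with the largest differences between WT regions among those called, and for each of the 10 the 2 genes most alike. *Shh*, *Ihh*, *Dhh* and *Foxl1* were named outside this rule, and some genes it picks are not reported here. Same-numbered hippocampus libraries of both genotypes had r = 0.124, 0.609 and 0.277 between their deviations, but WT replicate 1 was closer to mutant replicate 3 (r = 0.311). Replicate 2, the closest pair, had many Y-chromosome reads in both genotypes, and the numbers were not shown to pair the samples. Regions of the same animals were paired by animal number, with a mean r of 0.335 in WT and 0.267 in *Pcm1*-/- mice for the same animal. The values for different animals, -0.168 and -0.13, follow from these, because the deviations were taken from the mean of each group.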

Additional observations from a re-analysis of the deposited data

How the results depend on the processing

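Of 1215 values of single genes under alternatives, 1138 kept their direction and their side of the threshold, 26 lost a call, 12 gained it and 39 changed sign, none of these with an adjusted p under 0.05 in the values reported, and the cause was not tested. For genotype, the 10 genes gave 1 call in the hippocampus in a fit of all 18 libraries and 3 calls in the sum per animal with DESeq2. With the replicate number as a block, none of the 10 was called in any region, and over all genes 665 in place of 306 were called in the frontal cortex, 3 in place of 5 in the striatum and 9 in place of 3 in the hippocampus. Same-numbered libraries did not all deviate together in the frontal cortex (r = 0.0308, 0.373 and 0.319) or the striatum (r = 0.276, -0.151 and -0.346), and in no region did every library correlate best with its own number. In the striatum the WT numbers do not follow the animals, and the block there pairs a WT library with many Y-chromosome reads (replicate 3) with a mutant one with few. With the animal as a block, 8, 5 and 8 of the 10 were called between WT regions, in place of 7, 5 and 7, and over all genes 8446, 6492 and 6160 in place of 7289, 5230 and 5126. It changed the calls of *Gli1* (striatum against frontal cortex) and *Smo* (striatum against hippocampus) and no other call.

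Signs changed as follows. *Smo* in the frontal cortex was -0.02987 in the fit of all libraries with lane and -0.003418 with lane within the region, and *Sufu* was -0.001646 in the former. *Hhip* in the frontal cortex was 0.000998 without a filter and 0.001341 in the fit of all libraries. In the striatum *Gli1* was -0.1572 and *Hhip* 0.03902 with lane and all libraries. In the *Pcm1*-/- libraries *Gpr161* was 0.007885 for striatum against frontal cortex and *Gli1* 0.5484 for striatum against hippocampus. Leaving out each library moved the genotype difference in the frontal cortex from -0.0948 to 0.0811 for *Smo*, -0.027 to 0.02781 for *Sufu* and -0.09635 to 0.1405 for *Hhip*. In the striatum it ran from -0.03134 to 0.08903 for *Sufu*, -0.1706 to 0.8913 for *Gli1*, -0.2032 to 0.04819 for *Gli2*, -0.1681 to 0.07013 for *Gli3* and -0.1409 to 0.1508 for *Boc*. In the hippocampus it ran from -0.007486 to 0.08817 for *Sufu*, -0.3282 to 0.2167 for *Gli2* and -0.144 to 0.08137 for *Gas1*. Between WT regions *Gli2* ran from -0.121 to 0.3569 (striatum against frontal cortex), -0.1417 to 0.4984 (hippocampus against frontal cortex) and -0.2955 to 0.2357 (striatum against hippocampus), and *Gas1* from -0.03587 to 0.1729 (hippocampus against frontal cortex). Leaving out each animal moved the sums from -0.02526 to 0.04709 for *Sufu*, -0.3639 to 0.05517 for *Gli2* and -0.1454 to 0.03441 for *Gas1*.

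Counts over all genes moved more than those of the 10. For genotype, the frontal cortex gave 687 with DESeq2, 505 without a filter, 176 and 95 in fits of all libraries without and with lane, 29 with lane within the region and 11 to 825 without single libraries. The striatum gave 488, 61, 54 and 8 in the first of these, with 2 to 5 without single libraries, and the hippocampus 212, 4, 205, 160 and 2, with 1 to 11. The interaction gave 94 with DESeq2, 0 with its size factors, lane or the animal as a block, and 0 to 22 without single libraries, and the sum per animal 1203 with DESeq2 and 4 to 398 without single animals. Lane within the region could not be fitted in the striatum. Leaving out libraries for the other listed pathway genes, their counts and for the *Gli1* share and level in WT striatum was chosen after seeing the data. *Gli1* rests on 21 to 80 reads per library.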
